A study of Mus musculus with 16 samples.

Results

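The factors that start and extend every protein chain were followed in the mouse liver, across a diet low in isoleucine and across fasting and refeeding. Genes were taken by symbol: all names beginning Eif1 to Eif6, Eef1 or Eef2, together with Pabpc1, the main cytoplasmic poly(A)-binding protein. Of 77 names in the deposited count table, 8 pseudogenes and the 4 kinases of eIF2 were left out, and 4 genes (Eef1akmt3, Eef1a2, Eif4e1b and Eif2c5) did not reach a count of 10 in 4 libraries. The remaining 61 genes, of 51912 in the table, form 11 groups by complex or step, and all 61 passed the low-count filter of the tests, which kept 14920 genes.

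The samples were livers of 16 male mice, 13 weeks old, kept from the age of 10 weeks, for 3 weeks, on either the control amino acid diet or the low isoleucine diet. The groups were control diet fasted, low isoleucine diet fasted, control diet refed and low isoleucine diet refed, with 4 livers each. Fasting lasted 16 hours overnight; the labels do not give the length of refeeding, the strain or the amount of isoleucine, and the library names carry 1 number per group, so anything shared by a group's 4 animals, such as a cage, cannot be told apart from diet and feeding state. Whole liver was used, so fewer cells of a type and less RNA per cell cannot be told apart in any value. Nothing in the labels says how the 4 livers of a group were kept apart before sequencing, so p-values measure the spread between these samples.

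As background, translation starts when eIF2 brings the initiator transfer RNA to the small ribosomal subunit, which also carries eIF1, eIF1A, eIF3 and eIF5, and when eIF4F (the cap-binding eIF4E, the scaffold eIF4G and the helicase eIF4A) loads that subunit onto a capped mRNA. Amino acid supply reaches this machinery at both ends: uncharged transfer RNA activates the kinase GCN2, which phosphorylates eIF2 and so blocks its exchange factor eIF2B, while mTORC1 phosphorylates the eIF4E-binding proteins (4E-BPs) and so frees eIF4E. During elongation eEF1A delivers aminoacyl transfer RNAs and eEF2 moves the ribosome on, until eEF2 kinase phosphorylates and slows eEF2. Most of this control acts on the proteins, whereas the data here are mRNA levels.

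Library totals ran from 24368656 to 34002955 counts. Levels are given as CPM, read counts scaled to a common library size with TMM factors (trimmed mean of M-values), and changes as log2 fold changes with their standard errors (SE) from edgeR's quasi-likelihood test, 4 livers against 4, with p-values adjusted over all 14920 genes and a threshold of 0.05. Scaling by library size alone moved the median log2 fold change of all genes by 0.120 for refeeding on the control diet and by 0.111 with low isoleucine, and it moved the share of called genes that were higher from 52.1% to 71.7% and from 44.9% to 64.5%. Hepatocyte markers (Alb, Apoa1, Ttr, Cps1 and Serpina1c) summed to 59406 to 113364 CPM, and no marker of the 8 cell type lists was at 0 in all libraries. Library 4 of the control refed group stood apart: it had the highest TMM factor of the 16, 1.21, and the highest levels of the Kupffer cell, stellate cell, endothelial, lymphocyte and neutrophil marker lists.

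Compared per kilobase of exon, the genes covered a wide range. Eef1a1 had the highest mean over the 16 libraries, 2060 CPM per kilobase, followed by Eef2 at 274, Eif1 at 163, Eif4a1 at 90.7, Eif5a at 88.0 and Eif4ebp3 at 83.9 CPM per kilobase. The lowest was Eif5a2, the second gene for the elongation factor eIF5A, at 0.0471 CPM per kilobase. Within complexes the subunits were uneven: eIF2 ranged from 8.92 CPM per kilobase for Eif2s1 to 26.8 for Eif2s3x, and its exchange factor eIF2B from 2.02 for Eif2b3 to 15.5 for Eif2b5. Among genes of cap binding, Eif4e stood at 7.84 CPM per kilobase, Eif4ebp1 at 6.82, Eif4ebp2 at 38.6 and Eif4ebp3, as above, at 83.9. All 61 genes together took 1.10% ± 0.0383 (SD, n = 4) of the counts in the control fasted livers, 1.23% ± 0.0504 in the low isoleucine fasted livers, 1.12% ± 0.0840 in the control refed livers and 1.21% ± 0.0681 in the low isoleucine refed livers. In the fasted mice the 2 diets did not overlap in this share of raw counts, with 1.15% the highest control value and 1.16% the lowest low isoleucine value. After TMM scaling they did overlap, with the 61 genes summing to 10957 to 12414 CPM in the control fasted livers and 12164 to 13265 CPM in the low isoleucine fasted livers. Without Eef1a1, the largest contributor, the fasted diets did overlap: the control livers held 0.583% to 0.628% and the low isoleucine livers 0.605% to 0.727%.

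**Figure D1:**
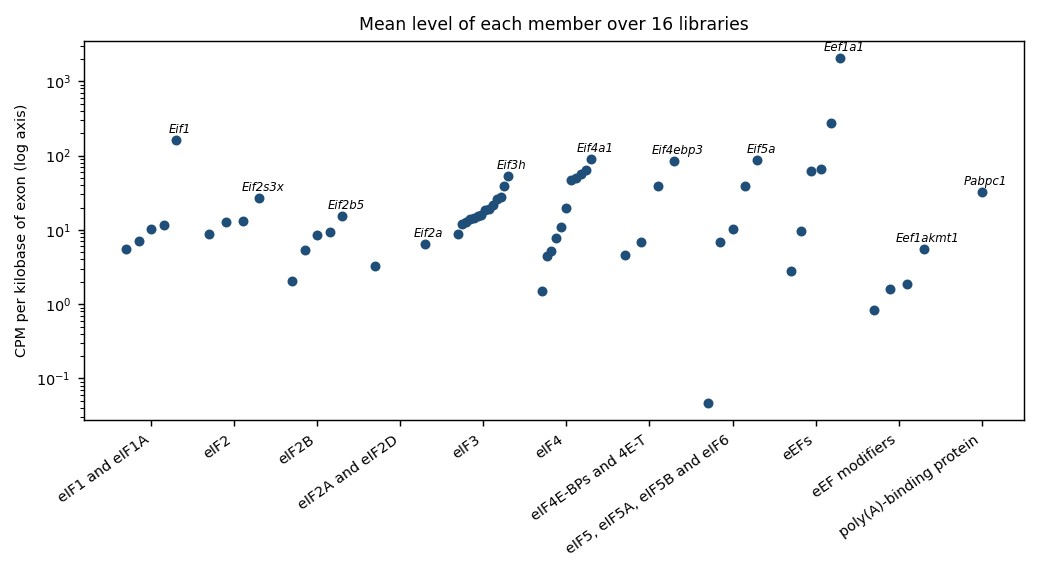
Mean level of each of the 61 genes over 16 libraries, in CPM per kilobase of exon on a log axis, with the genes of each complex side by side and the highest of each complex named. Eef1a1 sits at 2060 CPM per kilobase, above every other gene, and Eif5a2 at 0.0471 is the lowest.

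Promoter sequence was read for the genes that moved with feeding, because several of them moved together. RefSeq gives windows before the start site for 46 of the 61 genes (build GRCm38.p6), and 250 bases before each annotated start were searched on both strands for the E-box CACGTG (bound by Myc, USF and TFEB family proteins; it reads the same on either strand), for the C/EBP-ATF response element TGATGNAA and for the FoxO element GTAAACA. None of the 3 motifs contains another. The E-box was present for 11 of the 46 matched genes, or 23.9%, beside 6.86% of 27025 genes with such a window. Genes with more annotated starts have more windows, and this was not adjusted for. The 27025 genes were not limited to the 14920 tested, and the share among tested genes was not computed. Whether the higher share is particular to these factors therefore cannot be told. Of 13 matched genes that rose with feeding on either diet, 4 held an E-box (Eef2k, Eif1b, Eif4a1 and Eif4e). Of 6 genes that fell, 4 were matched (Eif1, Eif1ax, Eif4b and Eif4ebp2), and 0 of these held one. The other E-box genes (Eef2, Eif3f, Eif3k, Eif4g1, Eif4h, Eif5a and Eif5a2) were called with refeeding on neither diet. A link between the E-box and rising was not tested. The C/EBP-ATF element was found for 2 of 46 genes (3.91% of all genes hold it) and the FoxO element for 1 (3.54% of all genes). The windows below run 5′ to 3′ on the gene's strand, end at the base before the start site and have the E-box in capitals; the first 4 belong to genes that rose, and the last 2, with no E-box in these letters, to genes that fell on both diets.
Eif4e (chr3:138527018-138527267, plus strand): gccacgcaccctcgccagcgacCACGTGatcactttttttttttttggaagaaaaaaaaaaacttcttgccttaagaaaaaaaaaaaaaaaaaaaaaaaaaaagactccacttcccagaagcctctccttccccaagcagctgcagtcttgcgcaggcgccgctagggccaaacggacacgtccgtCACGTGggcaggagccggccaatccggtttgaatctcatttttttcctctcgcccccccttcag
Eif4a1 (chr11:69672424-69672673, minus strand): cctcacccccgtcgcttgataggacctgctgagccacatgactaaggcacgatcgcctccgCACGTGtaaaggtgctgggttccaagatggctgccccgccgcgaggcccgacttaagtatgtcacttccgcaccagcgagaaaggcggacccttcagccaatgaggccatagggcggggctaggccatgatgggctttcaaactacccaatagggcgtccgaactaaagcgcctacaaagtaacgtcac
Eif1b (chr9:120492356-120492605, plus strand): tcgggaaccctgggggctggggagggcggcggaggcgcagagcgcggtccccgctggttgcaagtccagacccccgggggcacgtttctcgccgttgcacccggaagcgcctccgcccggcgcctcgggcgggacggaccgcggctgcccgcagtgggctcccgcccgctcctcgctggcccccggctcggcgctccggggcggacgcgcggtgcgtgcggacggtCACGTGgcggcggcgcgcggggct
Eef2k (chr7:120842581-120842830, plus strand): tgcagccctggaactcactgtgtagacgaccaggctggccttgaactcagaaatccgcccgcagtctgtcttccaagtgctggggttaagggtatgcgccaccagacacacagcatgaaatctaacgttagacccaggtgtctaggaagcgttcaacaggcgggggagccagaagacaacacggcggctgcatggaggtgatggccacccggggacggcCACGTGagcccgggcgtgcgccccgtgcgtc
Eif4ebp2 (chr10:61452670-61452919, minus strand): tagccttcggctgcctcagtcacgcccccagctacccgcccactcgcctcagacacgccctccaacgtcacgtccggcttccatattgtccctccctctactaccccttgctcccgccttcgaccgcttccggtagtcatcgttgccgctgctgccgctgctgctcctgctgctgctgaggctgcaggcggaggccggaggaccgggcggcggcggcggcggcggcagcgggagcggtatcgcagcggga
Eif4b (chr15:102073523-102073772, plus strand): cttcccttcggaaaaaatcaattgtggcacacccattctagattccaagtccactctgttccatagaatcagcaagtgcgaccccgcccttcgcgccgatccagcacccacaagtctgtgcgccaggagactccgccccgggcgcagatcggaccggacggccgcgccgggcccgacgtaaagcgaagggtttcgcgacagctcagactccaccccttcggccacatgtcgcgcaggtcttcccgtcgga
In these windows the E-boxes begin 228 and 64 bases before an annotated start of Eif4e and 189 before that of Eif4a1. They begin 24 bases before the start of Eif1b and 31 before an annotated start of Eef2k. Eif4e and Eef2k have further annotated starts. The other window of Eif4e (chr3:138525941-138526190) and the other windows of Eef2k (chr7:120843350-120843599 and chr7:120850939-120851188) hold no E-box. These matches describe the letters only; binding was not measured.

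Refeeding was the contrast in which these genes moved. On the control diet 12 of the 61 genes were higher in the refed livers and 4 were lower at an adjusted p under 0.05, 26.2% of the set, where 17.1% of all genes tested were called (8.91% higher and 8.2% lower). With low isoleucine 11 were higher and 5 lower, again 26.2% of the set, where 21.4% of all genes were called (9.6% higher and 11.8% lower). The low isoleucine share lies near that of all genes. The median log2 fold change of the 61 genes was 0.09 on the control diet, against 0.01 over all genes, and 0.08 on the low isoleucine diet, against 0.02. The same features appear on both diets: eIF2B subunits and Eef1e1 were higher after refeeding, Eef2k was higher, and the cap-binding repressor Eif4ebp2, the helicase cofactor Eif4b and the start-site factor Eif1 were lower. No library is shared between the refeeding comparisons of the 2 diets.

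**Figure D2:**
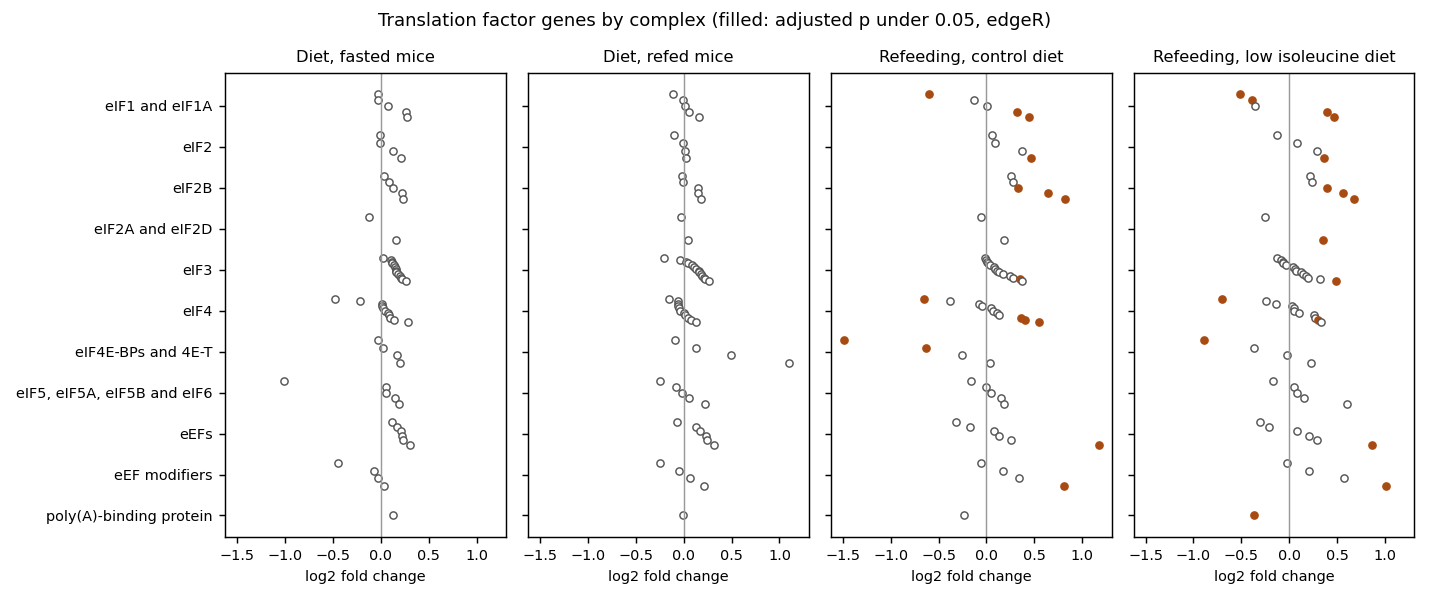
Log2 fold change of each of the 61 genes (points) by complex (lines of the plot) in the 4 comparisons (panels), low isoleucine minus control or refed minus fasted; filled points have an adjusted p under 0.05. Filled points appear only in the refeeding panels, 16 in each, and the 3 filled eIF2B points are to the right of 0 in both.

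eIF2B, which recharges eIF2 with GTP and is the point where amino acid shortage acts through GCN2, had 3 of its 5 subunits (Eif2b3, Eif2b4 and Eif2b5) higher after refeeding on each diet, and all 5 had positive values, with medians of 0.33 (control) and 0.39 (low isoleucine). Eif2b3 encodes the gamma subunit (chr4:117019402-117087306, plus strand in GRCm38). Eif2b3 stood at 9.52, 8.67, 11.1 and 8.47 CPM in the control fasted livers and at 14.6, 14.7, 20.4 and 16.9 CPM in the control refed livers. Eif2b3 with low isoleucine read 10.8, 10.3, 9.302 and 10.7 CPM fasted and 15.8, 16.1, 17.6 and 16.1 CPM refed. Every refed liver was above every fasted liver on both diets. Eif2b3 rose by a log2 fold change of 0.82 ± 0.124 on the control diet (adjusted p = 0.000279) and 0.67 ± 0.123 on the low isoleucine diet (adjusted p = 0.00102), which is 1.76-fold and 1.59-fold between group means.

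Eif2b4, the delta subunit (chr5:31187558-31193430, minus strand), followed the same pattern. Eif2b4 stood at 18.5, 14.8, 17.4 and 21.01 CPM in the control fasted livers and at 32.3, 27.5, 27.2 and 24.96 CPM in the control refed livers. Eif2b4 with low isoleucine read 15.7, 20.9, 24.2 and 23.3 CPM fasted and 27.9, 34.2, 25.7 and 36.4 CPM refed. Fasted and refed livers did not overlap on either diet, although the lowest refed and highest fasted livers of the low isoleucine diet were close. Eif2b4 rose by a log2 fold change of 0.64 ± 0.151 on the control diet (adjusted p = 0.00775) and 0.56 ± 0.15 on the low isoleucine diet (adjusted p = 0.0131). Eif2b5 carries the catalytic epsilon subunit (chr16:20498817-20509323, plus strand). Eif2b5 stood at 32.7, 31.7, 37.5 and 34.5 CPM in the control fasted livers and at 44.9, 42.2, 43.3 and 41.5 CPM in the control refed livers. Eif2b5 with low isoleucine read 33.5, 36.7, 35.6 and 39.02 CPM fasted and 46.8, 48.8, 44.97 and 49.5 CPM refed. The groups were apart on both diets, and the low isoleucine refed livers were also all above the control refed livers. Eif2b5 rose by a log2 fold change of 0.33 ± 0.0829 on the control diet (adjusted p = 0.0109) and 0.39 ± 0.0827 on the low isoleucine diet (adjusted p = 0.00282); on the control diet its adjusted p was 0.0551 without a filter on low counts. Eif2b1 and Eif2b2 did not pass, with log2 fold changes of 0.26 and 0.27 on the control diet and 0.22 and 0.24 on the low isoleucine diet. Eif2b1 did pass under scaling by library size alone, on both diets (adjusted p = 0.0106 and 0.0155), and on the control diet by DESeq2 (0.0476), without control fasted library 3 (0.0495) and without control refed library 4 (0.0303).

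Of the 4 eIF2 genes, 1 passed on each diet. Eif2s2 stood at 64.9, 67.5, 84.8 and 69.8 CPM in the control fasted livers and at 86.99, 89.1, 124 and 98.04 CPM in the control refed livers. Eif2s2 with low isoleucine read 86.2, 83.2, 70.9 and 73.8 CPM fasted and 98.5, 93.8, 99.7 and 111 CPM refed. Eif2s2, the beta subunit, was higher in every refed liver than in any fasted liver of its diet. Eif2s2 rose by a log2 fold change of 0.47 ± 0.123 on the control diet (adjusted p = 0.0143) and 0.36 ± 0.123 on the low isoleucine diet (adjusted p = 0.0448). Its control diet call was lost without control fasted library 1 or control refed library 3, and its low isoleucine call was lost in 12 of 16 omissions of 1 library and under the block by animal mark, with adjusted p-values up to 0.124. Eif2s1 stood at 35.2, 35.8, 47.9 and 38.3 CPM in the control fasted livers and at 35.7, 45.7, 62.5 and 59.5 CPM in the control refed livers. Eif2s1 with low isoleucine read 42.3, 36.2, 36.9 and 40.5 CPM fasted and 45.9, 44.7, 54.04 and 45.3 CPM refed. For this alpha subunit, whose phosphorylation is the amino acid switch, fasted and refed livers overlapped on the control diet but were apart with low isoleucine. Its log2 fold changes of 0.37 ± 0.152 and 0.29 ± 0.151 did not pass (adjusted p = 0.106 and 0.201); the first passed under scaling by library size alone, at 0.0357, and without control refed library 1, at 0.0161. Eif2s3x and Eif2s3y, near-identical copies on the sex chromosomes between which reads may be split, had values from -0.12 to 0.09 over both diets and were not called. Eif2d stood at 23.5, 22.7, 22.2 and 24.1 CPM in the control fasted livers and at 27.3, 29.3, 25.4 and 22.9 CPM in the control refed livers. Eif2d read 19.8, 21.3, 23.3 and 20.6 CPM in the low isoleucine fasted livers and 26.5, 26.7, 24.1 and 31.1 CPM in the refed ones. Eif2d, which takes part in ribosome recycling and reinitiation, rose on the low isoleucine diet by 0.35 ± 0.101 (adjusted p = 0.0195) and stood at 0.18 ± 0.101 on the control diet (adjusted p = 0.249). The Eif2d call was lost without low isoleucine fasted library 1 or 4 or low isoleucine refed library 4, without a low-count filter and when only the groups compared were fitted, with adjusted p-values up to 0.0722.

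Eif1 (chr11:100319885-100322096, plus strand), which keeps the scanning ribosome from starting at poor codons, was among the 3 genes that fell on both diets. Eif1 stood at 393, 372, 488 and 389 CPM in the control fasted livers and at 293, 285, 315 and 192 CPM in the control refed livers. Eif1 levels with low isoleucine were 429.9, 393, 392 and 396 CPM in the fasted livers and 267, 256, 255 and 353 CPM in the refed livers. All refed livers were below all fasted livers of their diet; library 4 was the lowest of the control refed group and the highest of the low isoleucine refed group. Eif1 fell with a log2 fold change of -0.60 ± 0.15 on the control diet (adjusted p = 0.0117) and -0.51 ± 0.15 on the low isoleucine diet (adjusted p = 0.0219). On the low isoleucine diet the call was lost when low isoleucine refed library 1, 2 or 3 was left out, with adjusted p-values up to 0.0671. Its paralogue Eif1b moved the other way. Eif1b stood at 8.53, 10.2, 10.7 and 10.04 CPM in the control fasted livers and at 13.8, 13.5, 14.3 and 12.3 CPM in the control refed livers. Eif1b read 9.99, 9.84, 8.49 and 10.5 CPM in the low isoleucine fasted livers and 14.2, 11.3, 13.4 and 14.8 CPM in the refed ones. Refed and fasted livers did not overlap on either diet. Eif1b rose by a log2 fold change of 0.45 ± 0.116 on the control diet (adjusted p = 0.0141) and 0.46 ± 0.116 on the low isoleucine diet (adjusted p = 0.0088); without control fasted library 1 the control diet value had an adjusted p of 0.0535.

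Eif1ad stood at 16.1, 16.96, 18.4 and 15.8 CPM in the control fasted livers and at 21.2, 21.1, 21.8 and 19.995 CPM in the control refed livers. Eif1ad with low isoleucine read 17.04, 19.6, 16.8 and 17.6 CPM fasted and 21.5, 24.4, 21.2 and 26.4 CPM refed. Eif1ad encodes a protein with an eIF1A-like domain, and its refed livers were above its fasted livers throughout. Eif1ad rose by a log2 fold change of 0.32 ± 0.0961 on the control diet (adjusted p = 0.0299) and 0.40 ± 0.0958 on the low isoleucine diet (adjusted p = 0.007). The control diet call was lost without any 1 of control fasted libraries 1, 2 and 4 or control refed libraries 1, 2 and 3, without a low-count filter and when only the groups compared were fitted, with adjusted p-values up to 0.113. Eif1ax, the X-linked gene for eIF1A, fell on the low isoleucine diet by 0.39 on the log2 scale (SE 0.136, adjusted p = 0.0495), a call kept in 4 of 9 alternatives and 5 of 16 omissions. Its near-identical copy Eif1a had -0.36 ± 0.188 there and was not called (adjusted p = 0.196), and reads may be split between the 2 genes.

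eIF3, the scaffold that holds the small subunit and the mRNA together, gave 14 genes, and 1 was called on each diet. Eif3a, its largest subunit, rose on the control diet from 117 ± 8.29 to 149 ± 19.5 CPM (SD, n = 4), a log2 fold change of 0.35 ± 0.109 (adjusted p = 0.0364). On the low isoleucine diet Eif3a stood at 0.18 ± 0.109 (adjusted p = 0.271). The Eif3a call was lost without any 1 of control fasted libraries 1, 2 and 4 or control refed libraries 3 and 4, under the block by animal mark, without a low-count filter and when only the groups compared were fitted, with adjusted p-values up to 0.120. Eif3d stood at 49.6, 45.7, 50.1 and 57.1 CPM in the control fasted livers and at 74.3, 67.95, 65.3 and 55.000 CPM in the control refed livers. Eif3d read 40.6, 61.9, 58.4 and 63.8 CPM in the low isoleucine fasted livers and 74.6, 87.6, 61.3 and 91.2 CPM in the refed ones. Eif3d, a subunit with cap-binding activity, rose on the low isoleucine diet by 0.49 ± 0.15 (adjusted p = 0.0286), although its lowest refed liver was below its highest fasted liver; on the control diet it stood at 0.37 ± 0.15 (adjusted p = 0.102). That call was lost without low isoleucine fasted library 1 or low isoleucine refed library 2 or 4 and when only the groups compared were fitted, with adjusted p-values up to 0.0940; under library size alone Eif3d was called on the control diet too, at 0.0456. Antisense to Eif3d lies Gm17638, over 2151 of its 4968 exon bases, and whether counting used strand is not stated. The 14 eIF3 values had a median of 0.10 on the control diet (12 positive) and 0.07 on the low isoleucine diet (9 positive); by library size alone 14 and 13 were positive. Eif3b also passed on the control diet under library size alone (adjusted p = 0.0380). Without low isoleucine refed library 3 Eif3g passed on the low isoleucine diet (adjusted p = 0.0472).

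Of 11 eIF4 genes, 3 rose and 1 fell on the control diet, and 1 rose and 1 fell on the low isoleucine diet. The helicase and its cofactor moved in opposite directions. Eif4a1 stood at 314, 282, 389 and 315 CPM in the control fasted livers and at 407, 454, 523 and 523 CPM in the control refed livers. Eif4a1 with low isoleucine read 330.1, 377, 305 and 352 CPM fasted and 451, 399, 441 and 427 CPM refed. Eif4a1, the main eIF4A helicase (chr11:69666936-69672423, minus strand), had no overlap between fasted and refed livers on either diet. It rose by 0.55 ± 0.119 on the control diet (adjusted p = 0.00432) and stood at 0.33 ± 0.119 on the low isoleucine diet (adjusted p = 0.0554). That low isoleucine value passed under DESeq2 (0.0276), limma-voom (0.0491) and library size alone (0.0193), and without control fasted library 3 (0.0420) or control refed library 1 (0.0467). A pseudogene copy of Eif4a1 may share its reads. Eif4b stood at 302, 320.0, 299 and 296 CPM in the control fasted livers and at 192, 229, 192 and 162 CPM in the control refed livers. Eif4b read 343, 344, 306 and 306 CPM in the low isoleucine fasted livers and 204, 222, 189 and 183 CPM in the refed ones. Eif4b (chr15:102073773-102097173, plus strand), which stimulates eIF4A, was lower in every refed liver than in any fasted liver. Eif4b fell with a log2 fold change of -0.65 ± 0.108 on the control diet (adjusted p = 0.000627) and -0.70 ± 0.108 on the low isoleucine diet (adjusted p = 0.000259), or 0.637 and 0.615 of the fasted mean. As a log2 ratio of the 2 genes in each liver, Eif4b over Eif4a1 ran from -0.38 to 0.18 in the control fasted livers and from -1.69 to -0.98 in the control refed livers, and from -0.20 to 0.05 and from -1.22 to -0.85 on the low isoleucine diet.

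Eif4a3 stood at 17.4, 19.1, 21.4 and 20.6 CPM in the control fasted livers and at 25.98, 25.5, 24.2 and 25.3 CPM in the control refed livers. Eif4a3 with low isoleucine read 19.9, 21.97, 20.9 and 23.3 CPM fasted and 24.2, 28.02, 23.9 and 30.2 CPM refed. Eif4a3, a relative of eIF4A that marks spliced mRNA in the exon junction complex, was higher in every refed liver than in any fasted liver of its diet. Eif4a3 rose by a log2 fold change of 0.36 ± 0.0994 on the control diet (adjusted p = 0.0193) and 0.31 ± 0.099 on the low isoleucine diet (adjusted p = 0.036). The control diet call was lost without control fasted library 1 or 2 and without a low-count filter, with adjusted p-values up to 0.0700. The low isoleucine call was lost without any 1 of low isoleucine fasted libraries 1, 2 and 3, control refed library 2 and low isoleucine refed libraries 2 and 4, without a low-count filter and when only the groups compared were fitted, with adjusted p-values up to 0.123. Eif4g1 stood at 498, 422, 405 and 477 CPM in the control fasted livers and at 533, 479.5, 521 and 438 CPM in the control refed livers. Eif4g1 with low isoleucine read 409.6, 500.2, 483 and 462 CPM fasted and 503, 513, 497 and 379 CPM refed. For Eif4g1, the main eIF4G scaffold, fasted and refed livers overlapped on both diets. Its log2 fold changes were 0.13 ± 0.119 (adjusted p = 0.53) and 0.03 ± 0.119 (adjusted p = 0.896). Eif4a2, Eif4e2, Eif4e3, Eif4g2, Eif4g3 and Eif4h were not called on either diet. Without low isoleucine fasted library 1 Eif4a2 did pass on the low isoleucine diet (adjusted p = 0.0355).

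The cap-binding protein and its repressors were read together. Eif4e stood at 35.998, 38.2, 43.3 and 44.2 CPM in the control fasted livers and at 45.9, 48.1, 64.7 and 55.5 CPM in the control refed livers. Eif4e read 48.1, 41.6, 37.96 and 43.4 CPM in the low isoleucine fasted livers and 51.4, 48.2, 60.2 and 46.5 CPM in the refed ones. Eif4e (chr3:138526179-138559696, plus strand) rose on the control diet by 0.41 ± 0.123 (adjusted p = 0.0312), with no overlap between fasted and refed livers, and stood at 0.27 ± 0.123 on the low isoleucine diet (adjusted p = 0.132), where 1 fasted liver reached the refed range. The control diet call was lost without any 1 of control fasted libraries 1 and 2 and control refed libraries 3 and 4, without a low-count filter and when only the groups compared were fitted, with adjusted p-values up to 0.114; the low isoleucine value passed by library size alone, at 0.0274. Eif4ebp2 (chr10:61428491-61452661, minus strand) has the highest CPM of the 4E-BP genes, but per kilobase of exon Eif4ebp3 stands above it. Eif4ebp2 stood at 276, 291, 241 and 251 CPM in the control fasted livers and at 184, 183, 152 and 163 CPM in the control refed livers. Eif4ebp2 read 322, 268, 278 and 318 CPM in the low isoleucine fasted livers and 163, 182, 168 and 129 CPM in the refed ones. All refed livers were below all fasted livers, and the low isoleucine diet had both the highest fasted and the lowest refed value. Eif4ebp2 fell with a log2 fold change of -0.64 ± 0.118 on the control diet (adjusted p = 0.00149) and -0.89 ± 0.119 on the low isoleucine diet (adjusted p = 7.29e-05), which leaves 0.643 and 0.541 of the fasted mean. In each liver the log2 ratio of Eif4ebp2 to Eif4e was 2.48 to 2.94 in control fasted livers and 1.23 to 2.00 after refeeding, and 2.69 to 2.87 against 1.47 to 1.91 on the low isoleucine diet. The log2 ratio of Eif4ebp1 to Eif4e overlapped between fasted and refed livers on both diets. It ran from -1.82 to -1.28 in control fasted and from -2.82 to -1.60 in control refed livers. With low isoleucine it ran from -2.17 to -1.15 fasted and from -2.91 to -0.64 refed.

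Eif4ebp3 stood at 31.2, 55.1, 128 and 108 CPM in the control fasted livers and at 13.03, 26.2, 44.1 and 31.3 CPM in the control refed livers. Eif4ebp3 read 45.5, 78.7, 84.5 and 108 CPM in the low isoleucine fasted livers and 41.9, 49.9, 65.98 and 87.5 CPM in the refed ones. Eif4ebp3 fell on the control diet with a log2 fold change of -1.49 ± 0.439 (adjusted p = 0.0305), although its groups overlapped, with 44.1 CPM in the highest refed liver and 31.2 CPM in the lowest fasted one. On the low isoleucine diet it stood at -0.37 ± 0.428 (adjusted p = 0.602), and the difference between diets was 1.13 ± 0.608 (adjusted p = 0.863). The control diet call was lost without any 1 of control fasted libraries 3 and 4 and control refed libraries 1, 2 and 4, without a low-count filter and when only the groups compared were fitted, with adjusted p-values up to 0.0964. Of its 744 exon bases 501 are shared with AC115631.1 on the same strand, so the counts of the 2 genes are uncertain. Eif4ebp1 stood at 13.6, 15.7, 12.3 and 17.7 CPM in the control fasted livers and at 15.1, 14.6, 9.18 and 10.9 CPM in the control refed livers. Eif4ebp1 read 10.7, 15.3, 17.1 and 17.05 CPM in the low isoleucine fasted livers and 15.2, 17.3, 8.02 and 29.8 CPM in the refed ones. Eif4ebp1, the best-studied 4E-BP, overlapped between fasted and refed livers on both diets, and 1 low isoleucine refed liver stood above all others. It was not called, at -0.25 ± 0.293 (adjusted p = 0.64) and 0.23 ± 0.291 (adjusted p = 0.638); nor was Eif4enif1, which encodes the eIF4E transporter 4E-T.

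**Figure D3:**
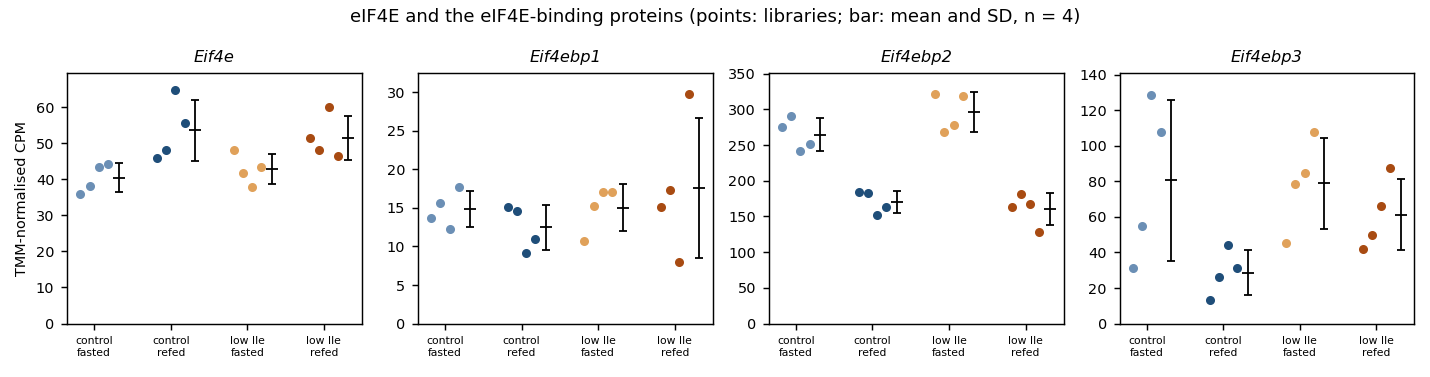
Eif4e and the 3 eIF4E-binding protein genes in TMM-normalised CPM (y axes start at 0), 1 panel each, with a point per liver and the mean and SD of 4 livers in each group. For Eif4ebp2 the refed livers, 129 to 184 CPM, lie below the fasted livers, 241 to 322 CPM; for Eif4ebp3 the groups overlap.

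Of 6 eEF genes 1 passed on each diet, and it is the one that works outside the elongation cycle. Eef1e1 (chr13:38644207-38659058, minus strand) encodes a scaffold protein of the multi-tRNA synthetase complex, also known as AIMP3. Eef1e1 stood at 5.61, 4.98, 6.15 and 5.32 CPM in the control fasted livers and at 10.1, 11.1, 15.1 and 13.4 CPM in the control refed livers. Eef1e1 with low isoleucine read 6.68, 5.596, 5.99 and 7.67 CPM fasted and 11.4, 11.6, 11.3 and 13.1 CPM refed. The lowest refed liver, at 10.1 CPM, was above the highest fasted liver, at 7.67 CPM. Eef1e1 rose by a log2 fold change of 1.17 ± 0.142 on the control diet (adjusted p = 5.3e-05) and 0.87 ± 0.141 on the low isoleucine diet (adjusted p = 0.000397), or 2.26-fold and 1.83-fold, and on the control diet this was the lowest adjusted p of the 61 genes. Eef2k (chr7:120842831-120907450, plus strand), the kinase that inactivates eEF2, showed a rise of similar size. Eef2k stood at 5.65, 5.63, 4.42 and 4.52 CPM in the control fasted livers and at 9.17, 7.93, 11.7 and 6.67 CPM in the control refed livers. Eef2k read 4.11, 3.04, 2.86 and 4.77 CPM in the low isoleucine fasted livers and 7.96, 6.695, 8.47 and 6.71 CPM in the refed ones. Every refed liver was above every fasted liver, with the lowest refed value at 6.67 CPM and the highest fasted value at 5.65 CPM. Eef2k rose by a log2 fold change of 0.81 ± 0.193 on the control diet (adjusted p = 0.0085) and 1.01 ± 0.195 on the low isoleucine diet (adjusted p = 0.00152), or 1.76-fold and 2.02-fold.

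The 2 abundant factors were not called. Eef1a1 stood at 4935, 5340.1, 5771 and 4549.7 CPM in the control fasted livers and at 4547, 4249, 5086 and 4427 CPM in the control refed livers. Eef1a1 with low isoleucine read 6007, 5987, 5075 and 6136 CPM fasted and 4782, 5534, 5036 and 4697 CPM refed. Fasted and refed livers of Eef1a1, the carrier of aminoacyl transfer RNA, overlapped on both diets. Its log2 fold changes were -0.17 ± 0.114 (adjusted p = 0.357) and -0.21 ± 0.114 (adjusted p = 0.209). Eef2 stood at 831, 915, 738 and 1130.3 CPM in the control fasted livers and at 882, 820.4, 640.2 and 553 CPM in the control refed livers. Eef2 levels with low isoleucine were 669.7, 1105, 1512 and 1168 CPM in the fasted livers and 787, 1019, 689 and 1102 CPM in the refed livers. Eef2, the translocation factor, varied among livers of 1 group by more than between groups. It stood at -0.32 ± 0.225 (adjusted p = 0.384) and -0.31 ± 0.224 (adjusted p = 0.368). The exchange factor subunits Eef1b2, Eef1d and Eef1g had values from 0.07 to 0.29 and were not called, and neither were the methyltransferase genes Eef1akmt1, Eef1akmt2 and Eef2kmt. Under library size alone Eef1g passed on both diets (adjusted p = 0.0415 and 0.0249). Eef1akmt2 stood at 0.58 on the low isoleucine diet (adjusted p = 0.0539). It passed there under DESeq2 (0.0284), limma-voom (0.0409) and library size alone (0.0280), and without low isoleucine fasted library 1 (0.0289). The eIF5, eIF5A, eIF5B and eIF6 group had 0 of 5 genes called on either diet. Pabpc1 stood at 189.6, 212, 269 and 218 CPM in the control fasted livers and at 169, 186, 218 and 184 CPM in the control refed livers. Pabpc1 with low isoleucine read 258, 253, 212 and 246 CPM fasted and 181, 201, 185 and 185 CPM refed. Pabpc1 fell on the low isoleucine diet, where fasted and refed livers did not overlap, by 0.37 on the log2 scale (SE 0.116, adjusted p = 0.0317), and stood at -0.23 ± 0.115 on the control diet (adjusted p = 0.195). The call was lost without any 1 of low isoleucine fasted libraries 1, 2 and 4 and low isoleucine refed libraries 1, 3 and 4, by library size alone and without a low-count filter, with adjusted p-values up to 0.105.

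**Figure D4:**
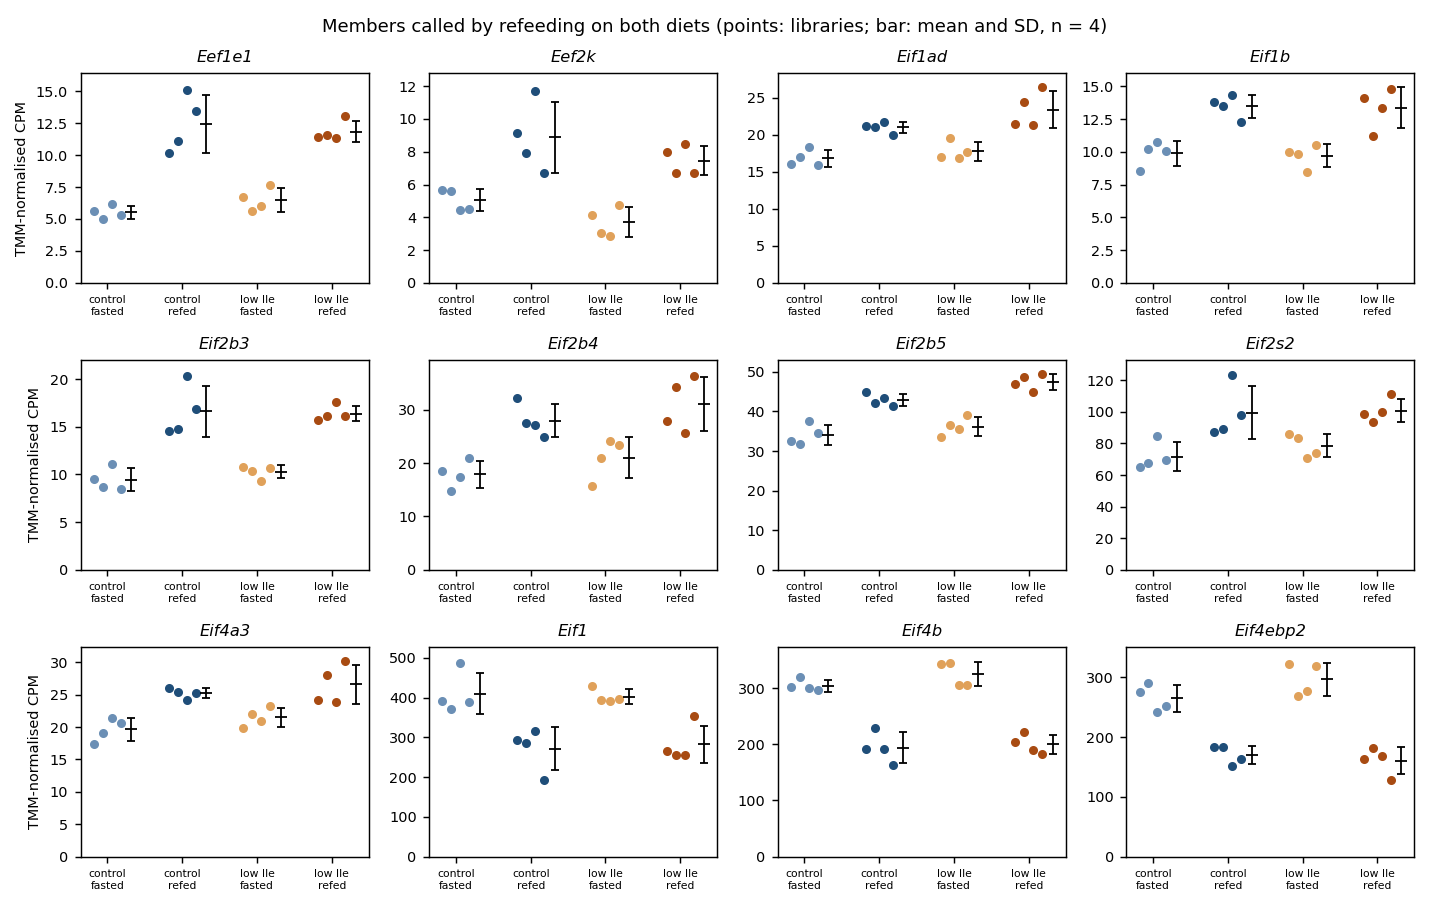
The 12 genes called by refeeding on both diets in TMM-normalised CPM (y axes start at 0), with a point per liver and the mean and SD of 4 livers in each group. In each panel the refed livers of a diet lie wholly above its fasted livers (9 genes) or wholly below (Eif1, Eif4b and Eif4ebp2).

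The calls of both diets coincided in large part. Of the 16 genes called on each diet, 12 were called on both, 75.0% of each list, and none in opposite directions: 9 rose (Eef1e1, Eef2k, Eif1ad, Eif1b, Eif2b3, Eif2b4, Eif2b5, Eif2s2 and Eif4a3) and 3 fell (Eif1, Eif4b and Eif4ebp2). Eif3a, Eif4a1, Eif4e and Eif4ebp3 passed on the control diet alone, and Eif2d, Eif3d, Eif1ax and Pabpc1 on the low isoleucine diet alone, but the difference between diets was called for 0 of the 61 genes, with 0 at an unadjusted p under 0.05 (edgeR; 0 members also by DESeq2 and limma-voom). Over the 61 genes 50 had the same sign on both diets and Spearman's rho between the log2 fold changes was 0.81, a description over genes that share libraries and scaling within each diet. The overlap of calls, the sign count and rho were not computed over all genes. Whether they are particular to these factors therefore cannot be told. Complete separation of fasted and refed livers was seen for 13 genes upward and 3 downward on the control diet, where 9.5% and 9.62% of all genes separated (19.1% together), and for 13 upward and 5 downward on the low isoleucine diet, where 11.6% and 13.1% did (24.6% together). Of the called genes, Eif4ebp3 (control diet) and Eif3d (low isoleucine diet) were the ones whose groups overlapped. The summed marker lists of Kupffer, stellate, endothelial and other cells overlapped in range between fasted and refed livers on both diets. Single markers called with refeeding on the control diet were the stellate cell genes Lrat (log2 fold change 0.67) and Reln (-0.66), 2 of 8 on that list. On the low isoleucine diet they were the globin genes Hbb-bs (-0.81) and Hbb-bt (-0.95), 2 of 5 erythroid markers. The part of these markers in the refeeding calls was not tested. For the 5 lists named above the highest value was that of control refed library 4, without which Eif3a, Eif4e and Eif4ebp3 were not called.

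**Figure D5:**
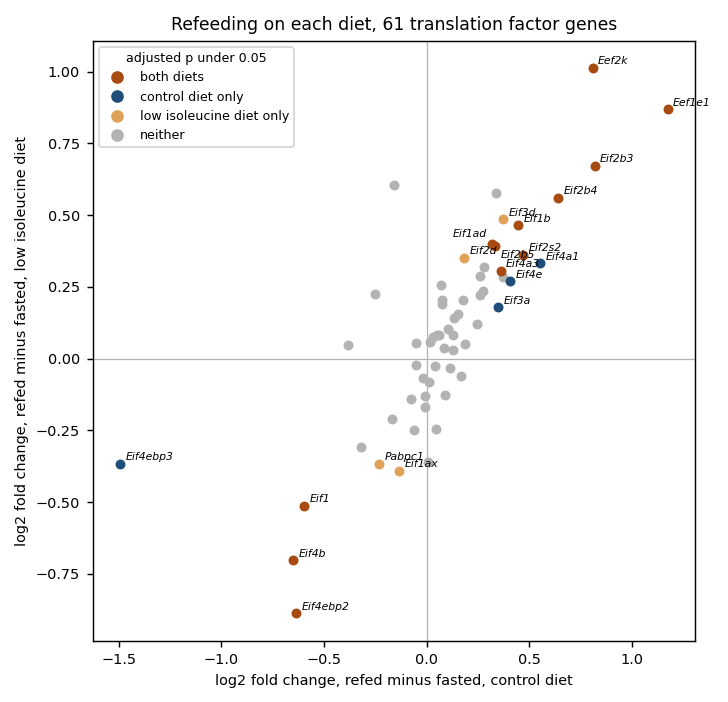
Log2 fold change of refed minus fasted livers for the 61 genes, control diet on the x axis and low isoleucine diet on the y axis; colours show on which diet the adjusted p was under 0.05, and called genes are named. The 12 genes called on both diets lie in the upper right (9) or lower left (3) corner of the plot.

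Between diets none of these genes passed the threshold, except that Eif4ebp3 did so in refed mice when the animal mark was added as a block (log2 fold change 1.18, adjusted p = 0.0355). In fasted mice 0 of the 61 genes were called between low isoleucine and control diet, where 0.771% of all genes were (115 of 14920; 0.328% higher and 0.442% lower). In refed mice 0 were called, where 0.174% of all genes were (26; 0.0603% higher and 0.114% lower). At these background shares 0 of 61 is near what all genes gave. DESeq2 and limma-voom also called 0 in both comparisons, and an unadjusted p under 0.05 was reached by 3 genes in fasted mice (Eef2k, Eif3m and Eif4g2) and 2 in refed mice (Eif3f and Eif4ebp3). The share of all genes at that unadjusted p is not given here. The median SE of the 61 log2 fold changes was 0.12 in each comparison, so that small differences would not be detectable with 4 livers a group. In the authors' deposited tables, which hold 60 of the 61 genes, 0 were called in either comparison, and the sign of the log2 fold change was the same as here for 60 of 60.

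The values leaned upward on the low isoleucine diet. In fasted mice 49 of 61 were positive with a median of 0.12, where 51.7% of all genes were positive with a median of 0.01. In refed mice 37 of 61 were positive with a median of 0.05, where 47.6% of all genes were positive and the median was -0.01. eIF3 had the most even pattern: 14 of 14 genes were positive in fasted mice (median 0.15) and 12 of 14 in refed mice (median 0.15), and these counts were the same with DESeq2's size factors and with library size alone. The eEFs were positive for 6 of 6 and 5 of 6 genes, with medians of 0.21 and 0.20. None of these genes passed the test, genes of a complex share libraries, and the counts are a description. Among fasted mice the summed Kupffer cell and macrophage list was lower on the low isoleucine diet. It held 227 to 333 CPM against 366 to 475 CPM, without overlap. The summed lymphocyte list was also lower without overlap (5.62 to 11.1 against 12.1 to 14.0 CPM). By the mean log2 level of its markers, the Kupffer cell and macrophage list did overlap between the fasted diets. The lymphocyte list did not overlap by that measure either. The part of both lists in the values was not tested.

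Eif4g2, an eIF4G relative that lacks the eIF4E-binding part, had the lowest p of the set in fasted mice, with 440.0, 406, 467 and 469 CPM on the control diet and 560.1, 554, 533 and 525 CPM on the low isoleucine diet. All 4 low isoleucine livers were above all 4 control livers. The log2 fold change was 0.29 ± 0.111 (unadjusted p = 0.0204, adjusted p = 0.322), and in refed mice it was -0.00 ± 0.111. Together with Eif3c it was 1 of 2 genes whose fasted diets did not overlap, both higher, where 3.67% of all genes separated upward and 4.4% downward, 8.07% in all. In refed mice Eif2b5 and Eif3h separated, both higher, where 2.2% of all genes separated upward and 2.24% downward, 4.44% in all. Eef2k averaged less in the fasted low isoleucine livers (3.69 ± 0.903 against 5.06 ± 0.676 CPM; log2 fold change -0.45 ± 0.197, adjusted p = 0.402). Eif4ebp3 had the largest refed value, 1.10 ± 0.435 (adjusted p = 0.43, and 0.0355 with the block), with overlapping groups and a 2.14-fold ratio of means. Of the other genes chosen for their role, Eif2s1, Eif2b5, Eif4e, Eif4g1, Eif4ebp2, Eef1a1, Eef2 and Pabpc1 had diet values between -0.10 and 0.31 over both feeding states. Eif4ebp1 stood at 0.02 ± 0.292 in fasted mice and at 0.50 ± 0.292 in refed mice (adjusted p = 0.992 and 0.611), with overlapping groups in both. The extremes in fasted mice were Eif5a2, at -1.01 ± 0.534 on under 1 CPM, and Eef2, at 0.30 ± 0.224.

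Genes around the factors gave a background for these counts; the lists were chosen by function, with earlier results of these data known. Of 14 genes for mTORC1, its regulators and the kinases below it, 1 rose and 4 fell with refeeding on the control diet, and 1 rose and 3 fell on the low isoleucine diet, while 6 values were positive and 8 negative on each. Beside these and the following counts stand the shares of all genes called, 17.1% on the control diet (8.91% higher) and 21.4% with low isoleucine (9.6% higher). The gene that rose on both was Mlst8, a subunit of both mTOR complexes (5.81 to 10.98 CPM between control group means, log2 fold change 0.92 ± 0.143, adjusted p = 0.000348). Mtor, Deptor (an mTOR inhibitor) and Tsc1 (a repressor of mTORC1) fell on both diets; Mtor fell from a mean of 59.1 to 36.2 CPM on the low isoleucine diet. Mknk2, a kinase of eIF4E, fell on the control diet from 113 to 52.3 CPM (log2 fold change -1.11 ± 0.292, adjusted p = 0.0161). Of 10 genes for eIF2 kinases, phosphatase subunits and GCN2 partners, Nck1 rose on the control diet and Eif2ak1 fell on the low isoleucine diet.

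Of 12 termination, recycling and reinitiation factors, 5 were called higher on the control diet and 3 with low isoleucine, and 0 lower on either, although 4 of the 12 values were negative on each diet. Dhx29, a helicase of scanning ribosomes, went from 9.01 to 19.5 CPM on the control diet (log2 fold change 1.11 ± 0.149, adjusted p = 0.000127) and from 9.299 to 18.4 CPM on the low isoleucine diet (0.98 ± 0.149, adjusted p = 0.000223). Abcf3 and Mcts2 rose on both diets, and Abce1, which splits ribosomes, and Pelo, which rescues stalled ones, on the control diet. Of 8 genes for enzymes that make hypusine (on eIF5A) and diphthamide (on eEF2), 5 were called higher on the control diet and 2 with low isoleucine, with 0 lower on either; the other 3 and 6 did not pass. Dhps, deoxyhypusine synthase, went from 8.301 to 11.99 CPM on the control diet (0.53 ± 0.113, adjusted p = 0.00409) and from 7.11 to 14.6 CPM on the low isoleucine diet (1.04 ± 0.113, adjusted p = 1.02e-05). Of 9 mitochondrial translation factors 1 rose on each diet (Mtrf1l and Tsfm), and of 5 poly(A)-binding and Paip genes 2 fell on the low isoleucine diet (Paip1 and Paip2).

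Cytosolic ribosomal protein genes, paralogues included, differed in pattern. Of 86 tested 1 (Rpl7l1) rose with refeeding on the control diet and 0 with low isoleucine. Over all genes 8.91% and 9.6% were called higher. Between diets 0 were called in fasted or refed mice, where 0.771% and 0.174% of all genes were. An unadjusted p under 0.05 (edgeR) was reached by 35 in fasted mice and 32 in refed mice. Positive values were seen for 86 and 85 of the 86, with medians of 0.32 and 0.32. Over all genes 51.7% and 47.6% were positive, with medians of 0.01 and -0.01. The share of all genes at an unadjusted p under 0.05 is not given here. The 10 factors known as TOP mRNAs, whose 5′ end carries the pyrimidine tract that puts ribosomal protein mRNAs under mTORC1 (Eef1a1, Eef1b2, Eef1d, Eef1g, Eef2, Eif3e, Eif3f, Eif3h, Eif4b and Pabpc1), were positive in 10 of 10 cases in fasted mice, with a median of 0.15, and 9 of 10 in refed mice, with a median of 0.17. With refeeding 0 of these 10 were called higher. Eif4b was called lower on both diets and Pabpc1 on the low isoleucine diet. Of the other 51 factors 12 and 11 were called higher. Over all genes 8.91% were called higher and 8.2% lower on the control diet, and 9.6% and 11.8% with low isoleucine. For a list of 10 genes the counts lie near these shares. Under library size alone Eef1g, 1 of these 10, was called higher on both diets. Ribosomal protein genes have many processed copies, so their counts may be split. Of 31 calls on the genes around the factors, 13 held in all 9 alternatives and 16 omissions of 1 library (Dhps, Dhx29 and Mlst8 on both diets, Dph2, Dph6 and Rpl7l1 on the control diet, and Abcf3, Deptor, Mtor and Tsfm on the low isoleucine diet); the other 18 were lost in at least 1, with adjusted p-values up to 0.224. By library size alone Mtor on the control diet, Tsc1 on both diets and Eif2ak1, Paip1 and Paip2 on the low isoleucine diet were not called.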

How the data were processed

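Per the labels' protocols, RNA from snap-frozen livers of 16 mice was made into stranded, poly(A)-enriched mRNA libraries, and each library's reads from several lanes were merged before quantification. Gene values deposited by the authors are expected counts from RSEM, of which 10.2% are fractions; which aligner, build and annotation were used is not given in the sources used here. Per the submitters' processing notes, edgeR, limma and R 3.5.3 had some part. For both diet comparisons the authors deposited a table with log2 fold changes, an F statistic as score and p-values, raw and Benjamini-Hochberg adjusted; the sign and call of each gene were read from them.

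Estimated counts were rounded to whole numbers. Symbols were given to 51633 of 51912 gene identifiers, and 279 had none. edgeR 4.0.16 in R 4.3.3 was run on all 16 libraries with 1 mean per group: filterByExpr (minimum count 10, minimum total 15), TMM scaling, robust quasi-likelihood fit, F test and Benjamini-Hochberg adjustment over 14920 genes; each SE was derived as the absolute log2 fold change over √F. The steps were tested on simulated data with 50 changed genes of each size, drawn from tested genes of at least 1 CPM. The fasted diet comparison recovered 2% of 1.25-fold, 18% of 1.5-fold, 58% of 2-fold and 96% of 4-fold changes. For refeeding on the control diet the shares were 4%, 18%, 74% and 94%. The changed genes were not limited to the 61 factors. Depth ran from 24368656 to 34002955 counts a library; the groups of 4 livers limit precision. Exon lengths and gene positions came from GENCODE M21 (GRCm38), and 14891 tested genes had a gene model there. Promoter windows came from RefSeq (GRCm38.p6).

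The genes and all lists were chosen with earlier results of these data known. Values in every liver are given for 11 genes chosen for their role (Eif2s1, Eif2b5, Eif4e, Eif4g1, Eif4ebp1, Eif4ebp2, Eif4ebp3, Eef1a1, Eef2, Eef2k and Pabpc1) and for at most 12 called genes per comparison in order of p. Alternatives were DESeq2 1.42.0 (size factors alone, and its Wald test), library size alone, no filter, at least 1 CPM in 4 libraries, limma-voom (limma 3.58.1), only the groups compared, the animal mark as a block, leaving out each library and, chosen after seeing the data, leaving out Mup, Alb and mitochondrial transcripts. Protein levels and phosphorylation were not analysed here.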

Additional observations from a re-analysis of the deposited data

Results flagged for a closer look

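In 100 sets of 4 livers (25 named genes in 4 groups), 6 had 1 liver far from the other 3 by Dixon's test, which sets the gap to the nearest liver against the group's range; chance gives about 1 in 20. Eef1a1 in low isoleucine fasted library 3 was 5075 CPM, below 5987 to 6136 CPM in the other 3. Eef1e1 in low isoleucine refed library 4 was the highest of its group at 13.1 CPM. Eif1 was highest in low isoleucine fasted library 1, at 429.9 CPM, and in low isoleucine refed library 4, at 352.8 CPM. Eif2s1 was highest in low isoleucine refed library 3, at 54.0 CPM. Eif4g1 was lowest in low isoleucine refed library 4, at 378.8 CPM.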

How the results depend on the processing

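No gene named here changed direction under an alternative in which it was called. Of the 16 genes called by refeeding on each diet, 8 (control diet) and 9 (low isoleucine) were called in all 9 alternatives and all 16 omissions of 1 library, and 6 did so on both diets: Eef1e1, Eef2k, Eif2b3, Eif2b4, Eif4b and Eif4ebp2. The count of factors called on the control diet was 10 without a low-count filter and 10 to 16 with 1 library left out (10 without control fasted library 1); on the low isoleucine diet it was 10 to 17 (10 without low isoleucine refed library 4). Scaling by library size alone called 21 on the control diet (17 higher) and 19 with low isoleucine (16 higher), against 16 on each (12 and 11 higher). The diet comparisons called 0 factors under each alternative except the block by animal mark, which called 1 in refed mice, Eif4ebp3 (log2 fold change 1.18, adjusted p = 0.0355). Over all genes, the diet calls in fasted mice were 115, and 365 by DESeq2, 185 with only the groups compared and 9 to 222 with 1 library left out (9 without control fasted library 4, 222 without control refed library 4). In refed mice they were 26, and 172 by DESeq2, 2 with only the groups compared and 3 to 91 with 1 library left out (3 without low isoleucine refed library 1, 91 without control refed library 4). The difference between diets in the response to refeeding gave 0 genes, 36 by DESeq2 and 0 to 1 with 1 library left out. The cause of these shifts was not tested.

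The animal marks in the labels (RL, R, L and N) recur in each group and were treated as names, not as pairs. Over 24 same-mark pairs the correlation of deviations from the group means ran from -0.325 to 0.323. Its median was 0.031, against -0.024 over pairs with different marks. A liver's best match carried its own mark in 14 of 48 cases. Weak correlations over all genes cannot decide whether the marks pair the livers. With the mark as a replicate block, 15 factors were called by refeeding on each diet. A count of 20 in place of 10 would have kept 60 genes. With 4 livers a group, small changes of low genes such as Eif5a2 could not be resolved.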

Other observations

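Eif4ebp1 is a known target of ATF4, the transcription factor of the amino acid response, and the 4 low isoleucine refed livers differed widely in some of its targets. In libraries 1 to 4 of that group Eif4ebp1 read 15.2, 17.3, 8.02 and 29.8 CPM and Trib3, another target of ATF4, read 13.3, 32.3, 4.01 and 63.4 CPM, so that the order of the 4 livers was the same for both genes. Fgf21, a fasting and amino acid stress hormone of the liver, read 13.2, 97.4, 5.03 and 56.4 CPM, and Ddit3 14.9, 36.4, 14.03 and 34.5 CPM, with libraries 2 and 4 high in each. In the control refed livers Trib3 read 3.499, 3.46, 2.91 and 6.28 CPM and Fgf21 14.0, 2.52, 2.24 and 5.73 CPM. There the order of the livers differed between Eif4ebp1, highest in library 1, and Trib3, highest in library 4. Asns, also a target of ATF4, spread more widely in the control refed livers (1.247, 6.18, 8.303 and 23.1 CPM) than in the low isoleucine refed livers (8.28, 12.2, 8.89 and 24.5 CPM), and in the latter the order of livers 1 and 3 differed from that of Trib3. Trib3, Fgf21, Ddit3 and Asns were chosen after their values were seen, no test was made, and with 4 livers no relation can be tested.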
